A study of Macaca mulatta with 12 samples.

Results

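The genes described here are 100 whose level in the prefrontal cortex of rhesus macaques was about the same before birth and shortly after it, and higher in older infants and juveniles. They were chosen from the measured values themselves. For each of 8785 genes, 3 stage means were formed, and 4855 genes had a newborn mean within 0.3 log2 units of the fetal mean. Of these 4855, the 100 with the largest juvenile minus newborn difference are the members. The differences between the stage means therefore describe the members and test nothing about them.

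The tissue was the superior frontal gyrus, taken post mortem from 12 male rhesus macaques that had died suddenly, with 1 array per animal of an Affymetrix design made for human genes. The 6 fetal animals were at 72, 57, 53, 42, 35 and 30 days before birth. The 2 animals called newborn here were 1 and 24 days old, and the 4 called juvenile were 182, 353, 479 and 831 days old. The series text calls all 6 postnatal animals newborn, so the split into newborn and juvenile is that of the selection rule. No animal received a treatment and no genotype is given. All values are the deposited expression values, read as log2 because of their span, and a difference of 1 is then a doubling.

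Cortical development continues long after birth. Neurons have mostly arrived by then, while oligodendrocytes go on wrapping axons in myelin, a membrane rich in cholesterol and sphingolipids, and synapses are still added, pruned and strengthened. Microglia and astrocytes, and with them complement, interferon-linked and lipid-handling genes, mature over the same span. In whole tissue, fewer cells of a type and less RNA per cell cannot be told apart.

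Genes with a rise of this size after the newborn stage were a minority of all genes. Most of them lay outside the 0.3 limit on the newborn minus fetal difference. Of the 8785 genes, 314 had a juvenile minus newborn difference at least as large as that of the last member. Of those 314, 161 had a newborn mean 0.3 or more above the fetal mean, 53 had one 0.3 or more below it, and 100 are the members. Over all 8785 genes, 2484 had a newborn mean 0.3 or more above the fetal mean and 1446 one 0.3 or more below it. The last member, CNIH4, had a difference of 0.5305, and the first gene left out by rank, TNNC1, had 0.5302. At the other limit, AKAP12 entered with a newborn minus fetal difference of 0.298, and NCOA7 stayed out with 0.305, although its juvenile minus newborn difference was 0.64.

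**Figure D1:**
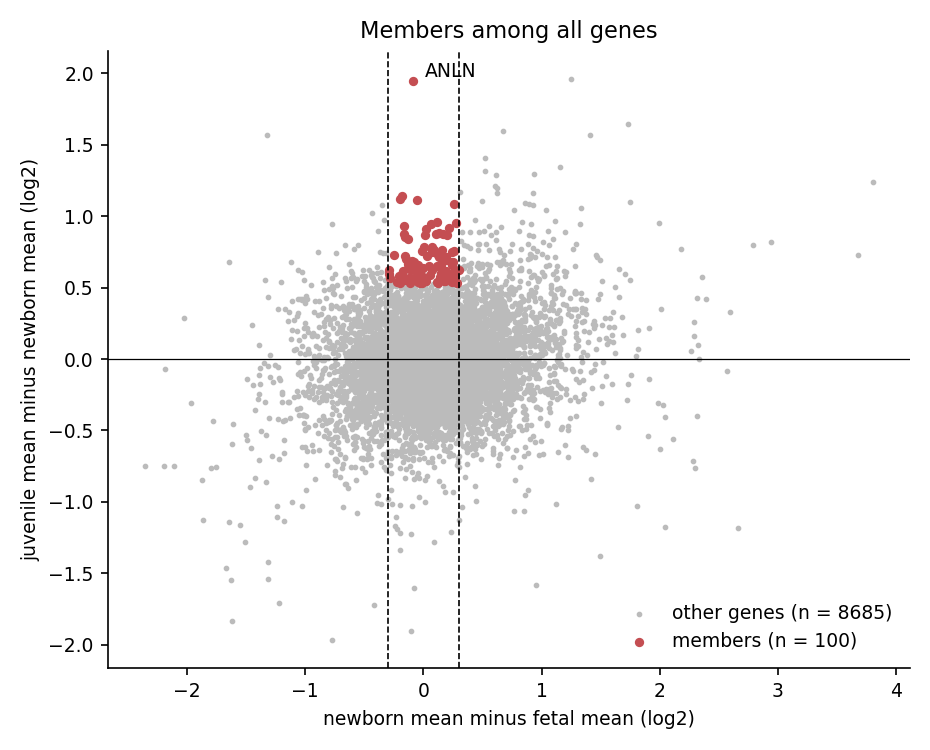
Newborn minus fetal mean (horizontal, log2) against juvenile minus newborn mean (vertical, log2) for 8785 genes, 1 point each, with the 100 members in red and the 0.3 limits dashed. The members fill the upper part of the central strip by construction, and ANLN stands at 1.95 above the next member at 1.14.

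Differences between the juvenile and newborn means of the members ran from 0.53 to 1.95 log2 units, with a median of 0.64, which is a 1.56-fold difference. Only 5 members differed by 1 log2 unit or more (ANLN, OVCH1, GCA, EPSTI1 and TSPAN15), and 39 differed by less than 0.6. The newborn mean lay above the fetal mean in 55 members and below it in 45. When each array was centred on its median, the median of the 100 differences was also 0.64.

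The spread of the members between animals of a stage had a median SD of 0.33. In limma's comparison of juvenile and newborn animals over all 9630 rows, 4 rows passed an adjusted p of 0.05 (0.0415% of rows), of which 2 were higher in juveniles (0.0208%), and 0 members were among them. The smallest adjusted p of a member was 0.251, for RHBDD1. At an unadjusted p under 0.05, 332 rows (3.45%) and 78 members were higher, a share that the selection fixes. The label of genes rising after the newborn stage thus holds for the stage means that chose them, and no single member passed the adjusted threshold in this comparison.

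Animal by animal, the juvenile values of 43 members all lay above the 8 fetal and newborn values (2.47% of the 4855 genes did so). In 70 members all 4 juvenile values lay above both newborn values (6.98%). In the other 30, at least 1 newborn animal was above the lowest juvenile, against 93% of the 4855 genes. These shares follow from the selection, and nothing is read from them. The animal of 24 days was above the lowest juvenile in 17 members and the animal of 1 day in 13. The difference between the 2 newborn animals was larger than the juvenile minus newborn difference in 26 members.

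The members' median distance from the fetal mean was between -0.19 and 0.27 in the 6 fetal animals. It was 0.03 at 1 day and 0.12 at 24 days. In the juveniles it was 0.54 at 182 days, 0.71 at 353 days, 0.91 at 479 days and 0.61 at 831 days. The same median over the 4855 genes was 0.04, -0.01, 0.17 and -0.16 in these 4 animals, in the order of their ages. The array of the 479-day animal had the highest median of all 12 (4.38) and that of the 831-day animal one of the lowest (4.02). After centring, the members' medians in the juveniles were 0.41, 0.66, 0.63 and 0.69, so that the 182-day animal was lowest and the other 3 were close together. The animal of 479 days was the highest juvenile in 55 members as deposited and in 22 after centring, and the animal of 831 days in 21 and 42.

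**Figure D2:**
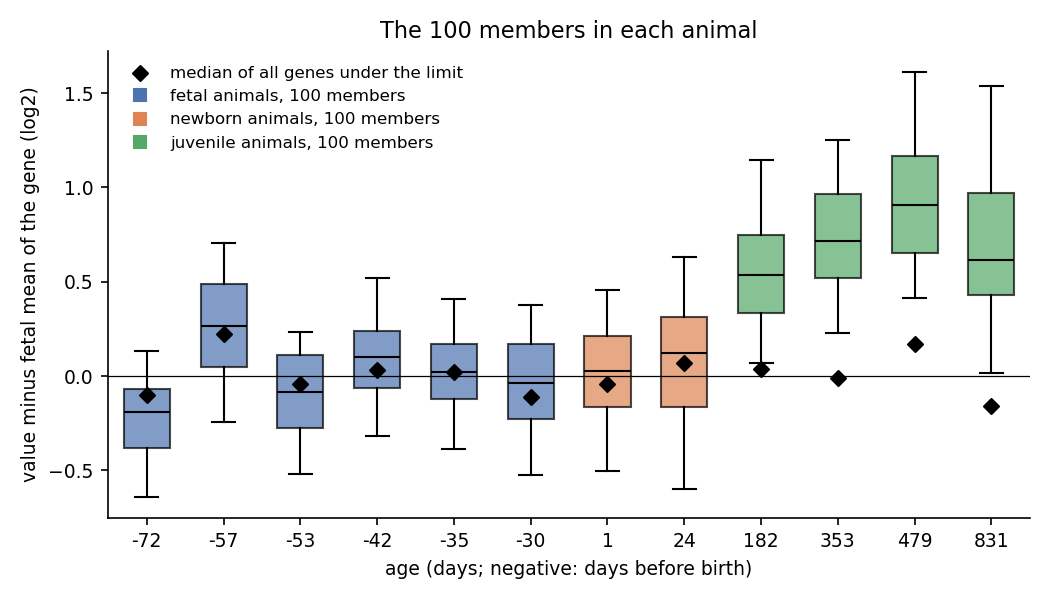
Distance of the 100 members from their own fetal mean (log2) in each of the 12 animals, ordered by age in days, where negative ages are days before birth. Boxes show the quartiles with the median and whiskers the 5th to 95th percentile, and black diamonds are the median of all 4855 genes under the limit. The 4 juvenile medians lie between 0.54 and 0.91, and the diamonds stay between -0.16 and 0.22.

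ANLN (row 8132318) led the members by a wide margin. It encodes anillin, an actin-binding scaffold of dividing cells that also assembles septin filaments in mature myelin. Its 6 fetal values ran from 0.48 to 1.75 with a median of 1.41, and the newborn animals had 0.83 at 1 day and 1.54 at 24 days. The juveniles had 2.03 at 182 days, 4.15 at 353 days, 3.78 at 479 days and 2.57 at 831 days. All juvenile values were above all others, and those of the middle ages were far above the youngest and oldest. The difference of the means was 1.95, or 3.85-fold, with a limma SE of 0.49. That SE pools the spread within all 3 stages and borrows from other rows. The SD of ANLN was 1.00 among the 4 juveniles and 0.51 between the 2 newborn animals. All 8 fetal and newborn values and 2 of the juvenile ones were under the 20th percentile of their arrays, where an array measures poorly. When that percentile was set as a floor for each array, the difference of ANLN was 0.42.

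ANLN was the single member among the 17 measured of 41 listed myelin and oligodendrocyte genes. Among the other 16, between fetal and newborn animals 8 rose and 0 fell (limma, adjusted p under 0.05; 4.92% of all rows rose and 2.24% fell), with a median of 1.06. This and the counts of such rises and falls given for the other lists rest on the 24-day animal: without it, 0 genes of the 8 lists that hold members were called in either direction. Between newborn and juvenile animals 0 of the 16 were called in either direction, at a median of 0.24. The smallest p there was that of PLLP, plasmolipin of the myelin membrane, which was at 4.16 in fetal, 4.63 in newborn and 5.43 in juvenile animals (adjusted p = 0.303). The mean level of these 16 genes ran from 2.84 to 3.34 in fetal, from 3.77 to 4.85 in newborn and from 4.20 to 5.09 in juvenile animals. Its part in the values of ANLN was not tested.

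A group of 11 members make, move or break down membrane lipids, a grouping made after the members were known. Their juvenile minus newborn differences had a median of 0.68, which is the value of APOE, a row under the floor on every array. In 4 of the 11 genes all fetal and newborn values were under the 20th percentile of their arrays. SGMS2 (row 8096733) and SGMS1 (row 7933619) are the sphingomyelin synthases, which turn ceramide into the sphingomyelin of the plasma membrane and the Golgi. SGMS2 had 1.88 and 2.03 in the newborn animals and 2.92, 2.59, 3.48 and 2.48 in the juveniles from youngest to oldest, with fetal values from 1.42 to 2.43. SGMS1 had 4.08 and 3.95 in the newborn and 4.73, 4.44, 4.80 and 4.36 in the juvenile animals, with fetal values from 3.71 to 3.97. Neither gene's juvenile values overlapped the rest, and in SGMS1 none of the 12 values was under the 20th percentile of its array. With the floor, SGMS1 was still at 0.57 while SGMS2 was at 0.05.

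CHPT1 (row 7958000), which makes phosphatidylcholine from diacylglycerol, had fetal values from 3.73 to 4.32. It was at 4.30 and 4.01 in the newborn animals and at 4.84, 5.18, 4.46 and 5.0 in the juveniles, again without overlap. PIP4K2A (row 7932530), a kinase of phosphatidylinositol 5-phosphate, varied little before birth, from 4.94 to 5.13. Its newborn values were 5.07 and 5.26, and the animal of 182 days, at 5.20, still lay between them. The 3 older juveniles were at 6.24, 6.12 and 6.01, so that only 5.27% of its rise was present at 182 days. SYNJ2 (row 8123006), an inositol phosphatase, was at 2.70 and 3.19 in the newborn and at 3.59, 3.75, 4.31 and 3.68 in the juvenile animals, above the fetal range of 2.63 to 2.97.

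NPC1 (row 8022531), which exports cholesterol from lysosomes, had 3.70 and 3.66 in the newborn animals and 4.01, 4.36, 4.74 and 3.93 in the juveniles. The fetal highest, 4.10, overlapped the juvenile values. APOE (row 8029530), the main lipid carrier secreted by astrocytes, was at 0.95 and 0.82 in newborn and at 1.37, 1.26, 1.44 and 2.19 in juvenile animals, above fetal values of 0.50 to 0.82. All 12 of these APOE values were under the 20th percentile of their arrays, and with the floor its difference was -0.01. The deposited row therefore gives no measured order of the APOE values above that floor. The remaining 4 genes of the group, ATP10B, PAFAH2, TMEM86A and PLBD1, differed by 0.66 to 0.71, and by 0.09 to 0.41 with the floor.

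APOE was also the single member among 14 measured of 24 listed astrocyte genes. Of the other 13, 8 rose and 0 fell between fetal and newborn animals, with a median of 1.12. None was called between newborn and juvenile animals, at a median of 0.23, led by FAM107A with 3.63, 4.29 and 5.21 at the 3 stages (adjusted p = 0.531). The mean level of these 13 ran from 4.66 to 5.56 in fetal, 5.84 to 6.43 in newborn and 6.36 to 6.73 in juvenile animals. Of 20 other genes listed for lipid and cholesterol metabolism, 1 rose and 1 fell between fetal and newborn animals and none was called later. ABCA8, a lipid transporter of oligodendrocytes, had the smallest p there, with 1.62, 2.14 and 3.55 at the 3 stages (adjusted p = 0.385).

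**Figure D3:**
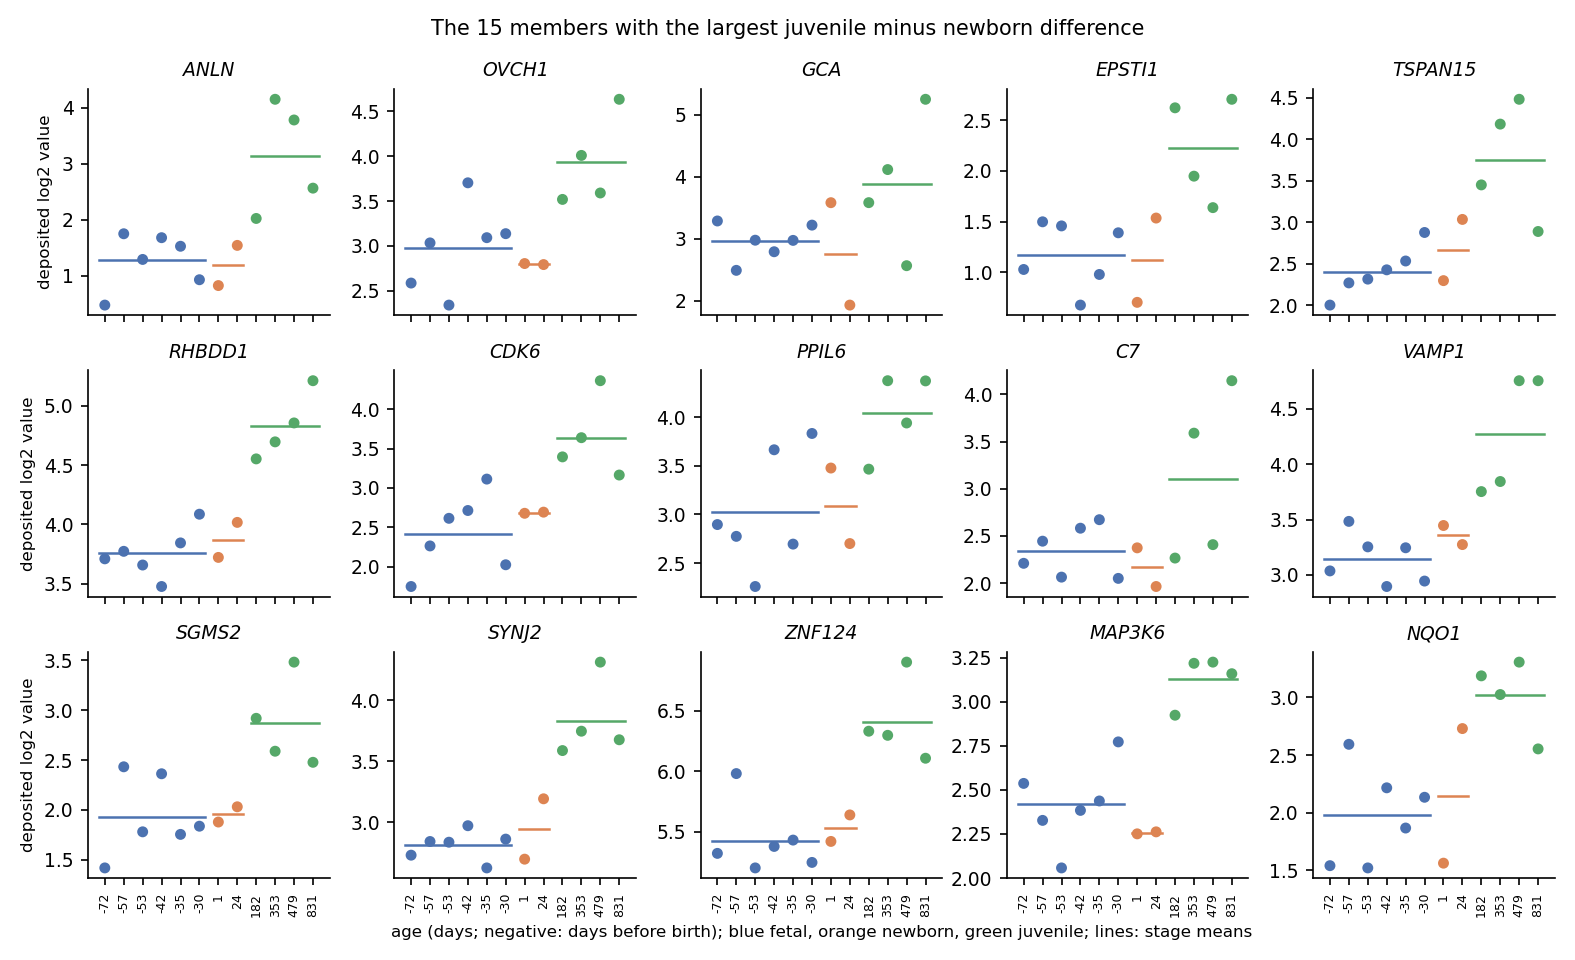
Deposited log2 values of the 15 members with the largest juvenile minus newborn difference, 1 panel per gene and 1 point per animal, ordered by age in days (negative: days before birth), with lines at the stage means. In ANLN, TSPAN15 and CDK6 the animals of 353 and 479 days are the highest, while in OVCH1, GCA, RHBDD1 and C7 the animal of 831 days is.

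A second group holds 7 members of immune signalling, with a median difference of 0.78. That median is the value of IL5, whose difference was -0.01 with the floor. In 5 of the 7 all fetal and newborn values were under the 20th percentile of their arrays. EPSTI1 (row 7971296), a gene that interferon induces, was at 0.70 and 1.54 in the newborn animals and at 2.62, 1.95, 1.64 and 2.71 in the juveniles. Its fetal values ran from 0.68 to 1.50. PARP9 (row 8090018), an ADP-ribosyltransferase of the interferon response, was at 2.31 and 2.14 in newborn and at 2.42, 3.01, 2.81 and 3.14 in juvenile animals. The highest fetal value of PARP9 was 2.40, just under the animal of 182 days. TRIM25 (row 8016847), a ubiquitin ligase that activates the RNA sensor RIG-I, was at 2.90 and 2.49 in the newborn and at 3.24, 3.43, 3.97 and 3.56 in the juvenile animals. All 12 values of EPSTI1 were under the 20th percentile of their arrays, and with the floor EPSTI1 was at -0.01, PARP9 at 0.11 and TRIM25 at 0.54.

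EPSTI1 and PARP9 were the members among 13 measured of 44 listed interferon response genes. Of the other 11, 2 rose and 1 fell between fetal and newborn animals, and none was called between newborn and juvenile animals. There 10 of the 11 differences were above 0 (48.6% over all genes), with a median of 0.27. In the other lists that hold members, such counts were 12 of 13 (astrocyte), 10 of 16 (myelin and oligodendrocyte) and 16 of 28 (presynaptic). They were 11 of 20 (lipid and cholesterol metabolism), 6 of 11 (amine and aldehyde breakdown), 8 of 18 (endothelial) and 3 of 5 (complement and coagulation). All lists share the same 2 newborn animals, and these counts were not tested. IFIT1, an interferon-induced protein that binds viral RNA, was at 2.25 in fetal, 2.92 in newborn and 4.52 in juvenile animals, a difference of 1.60 ± 0.43 between the last 2 stages (limma, adjusted p = 0.342). The mean level of the 11 genes was 2.10 to 2.84 in fetal, 2.59 to 3.07 in newborn and 3.07 to 3.39 in juvenile animals, and 4 of them were under the 20th percentile on every array. Of the microglial list, 9 of 28 genes were measured and none is a member. They had a mean level of 3.10 to 3.69 in fetal, 4.07 to 4.34 in newborn and 3.84 to 4.18 in juvenile animals. Of the lymphocyte list, 4 of 24 genes were measured, at 1.91 to 2.82, 2.26 to 2.58 and 2.26 to 2.85. The part of these cells in the members' values was not tested.

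Complement gave 2 members. C7 (row 8105084), a component of the membrane attack complex, was at 2.37 and 1.96 in the newborn animals and at 2.26, 3.59, 2.41 and 4.15 in the juveniles. The animals of 353 and 831 days were high, and those of 182 and 479 days lay within the fetal range of 2.05 to 2.67. With the floor the difference of C7 was 0.51 in place of 0.93. SERPING1 (row 7940028), the inhibitor of the first complement component, was at 2.66 and 3.64 in the newborn and at 3.06, 4.01, 3.80 and 4.41 in the juvenile animals. Its values at 24, 182 and 479 days lay within the fetal range of 2.80 to 3.85, so that the stages overlapped. Of 5 other measured genes of the complement and coagulation list, 3 rose between fetal and newborn animals (median 1.07) and none was called afterwards (median 0.14). The gene with the smallest p there was F13A1, a coagulation factor subunit of perivascular macrophages, at 2.30, 2.70 and 3.38 (adjusted p = 0.541). The other immune members, IL5 and TNFSF13B, which encode cytokines that act on eosinophils and B cells, had all 12 values under the 20th percentile of their arrays.

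Kinases, regulators of small GTPases and signalling adaptors made up 12 members, with a median difference of 0.63. CDK6 (row 8140955), a kinase of the G1 phase, was at 2.68 and 2.69 in the newborn animals and at 3.39, 3.64, 4.36 and 3.16 in the juveniles, above a wide fetal range of 1.75 to 3.11. In CDK6, 5 of the 6 fetal values and both newborn values were under the 20th percentile, and with the floor its difference was 0.64 in place of 0.95. CDK14 (row 8134098), a cyclin-dependent kinase linked to Wnt signalling, was among the brightest members. Its fetal values ran from 6.60 to 7.33, its newborn values were 7.18 and 7.21, and its juvenile values were 7.40, 7.68, 7.90 and 8.0, in the order of the ages. MAP3K6 (row 7914042), a stress-activated kinase, had nearly the same value in both newborn animals, 2.25 and 2.26, and 2.92, 3.22, 3.22 and 3.16 in the juveniles. In that gene 2 juvenile and all other values were under the 20th percentile, and with the floor its difference was 0.17 in place of 0.87.

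ELMO1 (row 8139057), which helps activate Rac in cell engulfment and migration, was at 3.52 and 3.83 in newborn and at 3.84, 4.42, 4.41 and 4.30 in juvenile animals. Its 182-day animal was thus level with the 24-day one, and the 3 older juveniles were higher. PTK2B (row 8145490), a calcium-activated tyrosine kinase of neurons, was at 3.45 and 4.02 in the newborn and 3.90, 4.74, 4.93 and 4.12 in the juvenile animals, with fetal values up to 4.16. In 8 of these 12 genes the animal of 479 days, whose array had the highest median, was the highest juvenile. Over the group, the median share of the rise present at 182 days was 49.5%, with 71.0% over all members and 84.3% in the lipid group, and differences between the groups were not tested.

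The role group of synaptic proteins holds 2 members, VAMP1 and SHISA7. Of 29 measured genes of the presynaptic list 1 is a member, and of all 8785 genes 100 are. VAMP1 (row 7960544), a vesicle protein of the fusion machinery, was at 3.45 and 3.27 in newborn animals, 3.75 and 3.84 at 182 and 353 days, and 4.76 at both 479 and 831 days. Its fetal values reached 3.48, so the juveniles lay apart, and the 2 oldest lay apart from the 2 younger ones. Of 28 other presynaptic genes measured, 8 rose and 2 fell between fetal and newborn animals (median 0.73; 3 to 13 rose when 1 animal other than the 24-day one was left out), and none was called between newborn and juvenile animals (median 0.08). SNAP25, a partner of VAMP1 in vesicle fusion, was at 6.50, 7.44 and 8.16 at the 3 stages (adjusted p = 0.634 between the last 2). SHISA7 (row 8039498), an auxiliary protein of GABA-A receptors, was at 2.49 and 3.29 in the newborn and 3.62, 3.40, 3.49 and 3.44 in the juvenile animals. It was the single member with another row, and that row disagreed, with a newborn minus fetal difference of 0.35 and a juvenile minus newborn difference of 0.09. No member came from the lists of postsynaptic, glutamate receptor, GABA, neuropeptide, potassium channel or cation channel genes. Of these lists 25, 20, 21, 17, 48 and 28 genes were measured, and nothing is read from the absence of members.

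Reductases and stress-linked genes formed a further set. NQO1 (row 8002303), a quinone reductase of the antioxidant response, was at 1.56 and 2.73 in the newborn animals and at 3.19, 3.02, 3.31 and 2.55 in the juveniles, so that the 24-day animal lay above the oldest. All fetal and newborn values of NQO1 were under the 20th percentile, and with the floor its difference was 0.07 in place of 0.87. CRYZ (row 7917037), another quinone reductase, was at 2.78 and 2.74 in newborn and 3.05, 4.07, 3.77 and 3.61 in juvenile animals, above fetal values of 2.36 to 2.77. All fetal and newborn values of CRYZ were also under the 20th percentile, and with the floor its difference was 0.63 in place of 0.87. BLVRA (row 8132515), biliverdin reductase, was at 4.54 and 4.62 and then at 4.85, 5.29, 5.59 and 5.60, but 1 fetal value reached 5.01. Of 11 other genes of amine and aldehyde breakdown, 3 rose between fetal and newborn animals and none was called later. CYP2J2, a cytochrome that oxidises arachidonic acid, was at 2.37, 4.12 and 5.22 (adjusted p = 0.541). The 7 members of stress response and protein quality control (DDIT3, DDIT4L, DNAJB4, CREBRF, PSMB2, SVIP and ZFAND2B) had a median difference of 0.64. In DDIT3, DDIT4L and SVIP all fetal and newborn values were under the 20th percentile. With the floor these 3 differed by 0.05, 0.22 and 0.05. PSMB2, a proteasome subunit, was at 5.34 and 5.68 in newborn and at 6.24, 6.07, 6.02 and 6.01 in juvenile animals.

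The 13 members that act in transcription, RNA processing or DNA maintenance had a median difference of 0.64. NR3C2 (row 8103094), the mineralocorticoid receptor, was at 4.05 and 4.25 in the newborn animals and at 4.49, 4.61, 5.20 and 5.32 in the juveniles, in the order of the ages. Its fetal values ran from 3.50 to 4.21. TLE1 (row 8161919), a transcriptional corepressor, was at 4.56 and 4.59 and then at 5.09, 5.0, 5.05 and 5.78. ZNF124 (row 7925691), a zinc finger protein, was at 5.42 and 5.64 in newborn and at 6.33, 6.30, 6.90 and 6.11 in juvenile animals. MARF1 (row 7999642), an RNA-binding endonuclease, was at 4.84 and 5.31 and then at 5.68, 5.80, 6.24 and 5.63. The juvenile values of these 4 genes did not overlap the others, and none of their 12 values lay under the 20th percentile. The 4 members of mitochondrial import and assembly, TIMM21, SDHAF4, NDUFAF6 and MIX23, differed by 0.53 to 0.62 (NDUFAF6 by 0.30 with the floor), and in 1 of them (TIMM21) the juveniles stood apart.

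The rest of the leading members belong to no such group. RHBDD1 (row 8048772), an intramembrane protease, was at 3.72 and 4.02 in the newborn animals and at 4.55, 4.70, 4.86 and 5.21 in the juveniles, higher at each step of age, with fetal values of 3.48 to 4.09. Its difference was 0.96 ± 0.21 (limma SE over all 3 stages). OVCH1 (row 7962029) was at 2.80 and 2.79 and then at 3.52, 4.01, 3.59 and 4.64, but a fetal value of 3.70 overlapped these. GCA (row 8046003), the calcium-binding protein grancalcin, was the most variable. It had 3.58 and 1.93 in the newborn animals and 3.58, 4.12, 2.57 and 5.25 in the juveniles, and its difference of 1.12 was 0.70 with the floor. TSPAN15 (row 7928046), a tetraspanin partner of the protease ADAM10, was at 2.30 and 3.04 and then at 3.45, 4.18, 4.48 and 2.89, so that the oldest juvenile was below the 24-day animal. PPIL6 was at 3.48 and 2.70 and then at 3.46, 4.37, 3.94 and 4.37, with fetal values up to 3.83. SLCO1A2 (row 7961626), an organic anion transporter of brain endothelium, was at 4.28 and 4.25 and then at 4.40, 5.01, 5.19 and 4.75, with a fetal highest of 4.60. Of 18 other endothelial genes, 1 rose between fetal and newborn animals and none was called later, where the smallest p was that of the receptor KDR, at 4.44, 4.14 and 3.16 (adjusted p = 0.303).

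Of 490 genes with a row in the 35 gene lists, 9 were members, while 100 of all 8785 genes are. No member was in 27 of the lists. The 91 members in no list are known here by their own function alone. Of the red blood cell list, 1 of 16 genes was measured (ALAS2), under the 20th percentile on every array.

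Changes within a stage were not used by the selection and could be tested gene by gene. They were estimated in 1 limma fit with the 3 stage means, a fetal slope per 10 days, the difference between 24 days and 1 day, and a juvenile slope per doubling of age. No row of 9630 passed an adjusted p of 0.05 in any of these 3 tests, members included (0% of rows), and at an unadjusted p under 0.05 there were 573, 806 and 570 rows (5.95%, 8.37% and 5.92%).

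In the fetal animals, 65 of 100 member slopes pointed up, against 46.5% of the 4855 genes, with medians of 0.03 and -0.01 per 10 days. After centring the counts were 66 of 100 and 50.1%. All genes share the same fetal animals, so these counts are a description and were not tested. At the unadjusted threshold 3 members were past it, all upward (3.18% of rows), including ZNF438 (0.35 ± 0.08, SE, limma adjusted p = 0.756) and SRPX2 (0.26 ± 0.07, adjusted p = 0.756). With the floor both slopes were 0.007, since all 6 fetal values of each gene were under it. ZNF438, a zinc finger protein, had its lowest fetal value, 1.13, at 72 days before birth, and without that animal its slope was 0.16. The downward slopes with the smallest p were those of SERPING1 (-0.16 ± 0.08, adjusted p = 0.864) and the kinase VRK2 (-0.17 ± 0.12, adjusted p = 0.895).

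Between the 2 newborn animals 60 members were higher at 24 days and 40 at 1 day, with a median of 0.07, and 60.0% of the 4855 genes were higher at 24 days. After centring 43 members were higher at 24 days (median -0.11), and 41.4% of the 4855 genes. At the unadjusted threshold 8 members were past it upward (6.72% of rows) and 3 downward (1.65%). BCR, a GTPase-activating protein and kinase, had the smallest p, with 4.36 at 1 day and 5.66 at 24 days, a difference of 1.29 ± 0.33 (SE, limma adjusted p = 0.533). Its juvenile values of 5.78, 5.41, 5.73 and 5.28 were around the 24-day value. ALKBH2, a DNA repair enzyme, differed by 1.27 ± 0.47 (adjusted p = 0.533). All 12 values of ALKBH2 were under the 20th percentile of their arrays, and with the floor its difference was 0.24. In the other direction were ZNF438 (-1.32 ± 0.41, adjusted p = 0.533) and NDUFAF6, an assembly factor of complex I (-0.97 ± 0.44, adjusted p = 0.587). With the floor these were 0.018 and -0.42, and BCR kept 1.29. With 1 animal at each age, these errors borrow the spread of the other stages.

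Among the juveniles, 62 of 100 members had a slope above 0, against 33.2% of the 4855 genes, and the medians were 0.07 and -0.06 per doubling of age. After centring these were 75 of 100 against 49.8%, with medians of 0.14 and -0.001, and after quantile normalization 77 against 48.2%. The share of upward slopes was thus higher among the members than among the 4855 genes on each of the 3 scales. No slope of a single member passed the threshold. All 100 slopes come from the same juveniles, whose mean also entered the choice of members. The genes are therefore not replicates, and the 3 scales are not independent of each other. The difference in share describes these animals and was not tested. At an unadjusted p under 0.05 there were 10 members upward (1.75% of rows) and 3 downward (4.16%). The smallest p upward were those of SERPING1 (0.58 ± 0.18 per doubling, adjusted p = 0.700) and VAMP1 (0.52 ± 0.17, adjusted p = 0.704). Downward were SRPX2, a secreted protein with sushi domains (-0.56 ± 0.16, adjusted p = 0.601), and CGRRF1, a ubiquitin ligase (-0.50 ± 0.20, adjusted p = 0.805). With the floor these downward slopes were -0.10 and -0.09, and all 12 values of CGRRF1 were under it, while those of SERPING1 and VAMP1 kept 0.58 and 0.52. SRPX2 had 3.03 at 182 days and 1.79 at 831 days, the second of which lay within its fetal and newborn values.

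**Figure D4:**
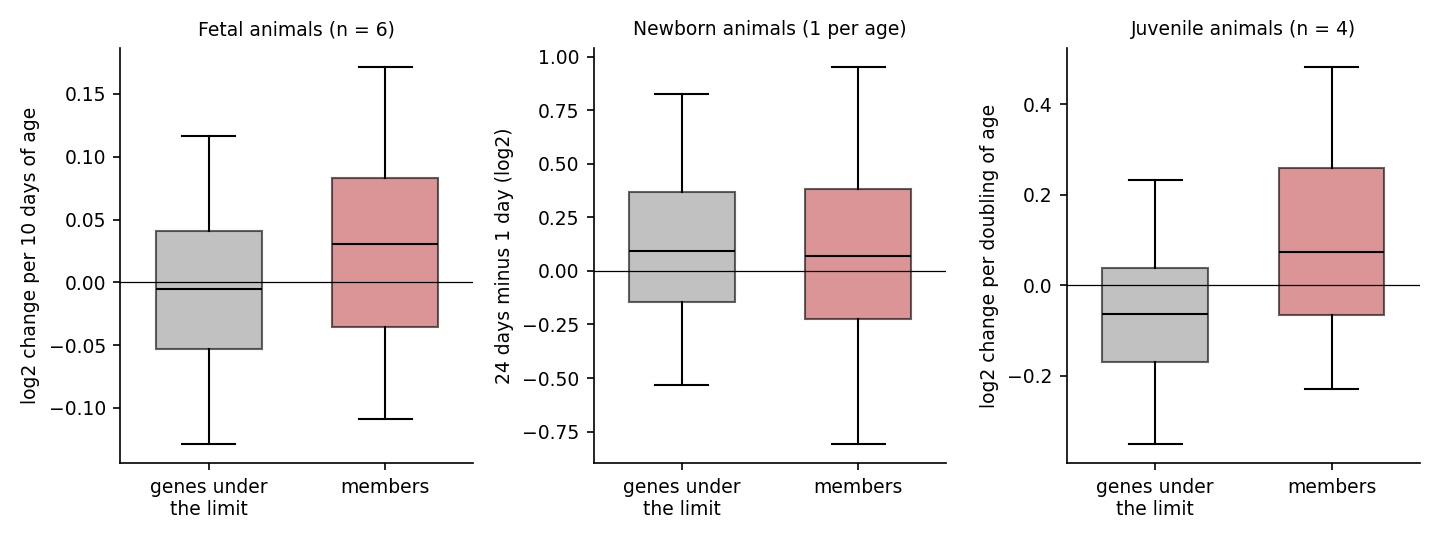
Changes within each stage for the 4855 genes under the limit (grey) and the 100 members (red): the fetal slope per 10 days, the difference between the 24-day and 1-day animals, and the juvenile slope per doubling of age, all in log2 units. Boxes show quartiles with the median and whiskers the 5th to 95th percentile. The member medians are 0.03, 0.07 and 0.07, against -0.01, 0.09 and -0.06.

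The order of the juveniles differed between members and with the scaling of the arrays. The animal of 182 days had reached 80% or more of the mean rise in 40 members and less than 50% in 31, and in 3 it was below the newborn mean. In 11 members the values were higher at each step from 182 to 831 days, RHBDD1, CDK14 and NR3C2 among them, and after centring in 15. In 34 members the animals of 353 and 479 days were both above those of 182 and 831 days, as in ANLN and TSPAN15, and this count was 24 after centring and 21 after quantile normalization.

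How far the choice of members rested on single animals was read by leaving out each postnatal animal and applying the rule again. Without 1 juvenile, 69 to 81 of the 100 members were chosen again. In the animal left out, the 100 genes then chosen had a median distance from the fetal mean of 0.40 at 182 days, 0.61 at 353 days, 0.65 at 479 days and 0.36 at 831 days. With each array centred on its median, these were 0.27, 0.55, 0.37 and 0.44. The 4855 genes had 0.04, -0.01, 0.17 and -0.16 in the same animals. The 3 juveniles that had been used gave 0.81, 0.76, 0.68 and 0.78 for the same genes. The juvenile left out was above the fetal mean in 94, 90, 88 and 76 of the 100 genes, in the order of the ages, and in 54.7%, 48.3%, 67.9% and 33.9% of all genes under the limit. The fetal mean itself took part in the choice, so these distances are a description and test nothing.

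The choice changed more without either newborn animal. Without the 1-day animal 40 members were chosen again, and without the 24-day animal 25. For the 100 genes chosen with the 1-day animal as the only newborn, the 24-day animal was already 0.88 above the fetal mean in the median, and above it in 98 of 100. For those chosen with the 24-day animal alone, the 1-day animal was 0.32 above it, and above it in 82. All genes under the limit gave 0.13 and -0.03, and 62.8% and 45.3% of them were above the fetal mean. With centred arrays the 100 genes gave 0.69 at 24 days and 0.31 at 1 day. On the deposited values the 100 members themselves had medians of 0.03 at 1 day and 0.12 at 24 days. Of these 2 animals, the choice of members used the mean only. That a member had not risen by the newborn stage is a statement about that mean.

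**Figure D5:**
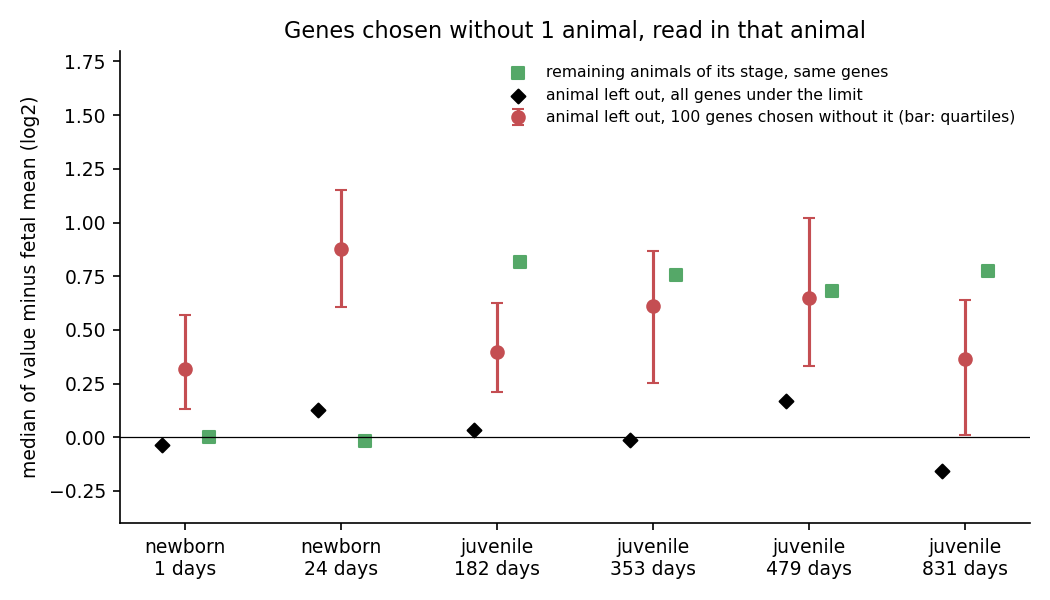
Median distance from the fetal mean (log2) when each newborn or juvenile animal is left out of the rule: red points with quartile bars show the animal left out over the 100 genes chosen without it, green squares the remaining animals of its stage over the same genes, and black diamonds the animal left out over all genes under the limit. The 24-day animal is at 0.88 in genes chosen without it, and the juveniles left out are at 0.36 to 0.65, all on the deposited values.

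The members had lower signals and a larger spread than the genes they were drawn from. A choice by the largest difference between few animals favours rows of large spread, so these values are a description and test nothing. Their median level was 3.32, against 4.21 in the 4855 genes, and the median of their SD within stages was 0.33 against 0.26. In 31 members all 8 fetal and newborn values were under the 20th percentile of their arrays (9.74% of the 4855 genes), in 10 all 12 values were (7.95%), and in 41 none was (69.0%). With the floor, 28 members had a difference under 0.2 and 57 had one of 0.5 or more.

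In the gene order of the macaque assembly 98 members could be placed, and 10 of them (10.2%) had another member within 10 protein-coding genes, against 10.9% of the other genes under the limit. The closest pair was ANLN and ELMO1, with 1 gene between them, followed by PARP9 and MIX23 with 3.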

How the data were processed

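Deposited values of 12 arrays, 1 per animal, were used. Per the labels' protocols, Trizol was used to extract the RNA, from which biotinylated cRNA was made. The authors deposited expression values that were read here as log2, because they span -0.86 to 10.6; no source used here names the log base. Background correction, summarisation, normalization, row filters and batches are likewise not given in those sources. Of 9630 rows, 8848 carry 1 gene symbol, 229 several and 553 none. They gave 8785 genes, each by its row of highest mean, of which 8628 have their symbol in the macaque gene tables. Array medians ran from 3.98 to 4.38 and precision is limited by how few arrays there are.

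The 3 stages were set by age, and the members and gene lists were chosen with earlier results of these data known. Role groups were made after the members were known. limma 3.58.1 (R 4.3.3) was fitted to all rows with stage means and ages within stages, and p-values were adjusted over all rows by the Benjamini-Hochberg method. All are two-sided and measure the spread between animals. Named genes are the 15 members with the largest difference, members in a list, the 2 members per direction with the smallest p in each within-stage test, genes at the thresholds, and the non-member with the smallest p of a list, given for the lists that hold members and for called genes. Other members were picked after their values were seen. The floor is the 20th percentile of each array.

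The fit was tested on simulated data with 200 changed rows of 9630 per comparison, shared evenly among changes of 0.5, 1, 2 and 4 log2 units. Noise was drawn independently for each row and array, without shifts shared by an array. Recovery in the real data may therefore differ. Of rows changed by 2 log2 units over the stage it recovered 78% for the fetal slope, 54% for the newborn difference and 70% for the juvenile slope. Of rows changed by 1 unit it recovered 10%, 4% and 2%. Alternatives were another scaling, a floor, removal of the dimmest 25% of rows, other limits, other variance models, array weights, age on a linear scale, and each animal left out. Gene order came from the RefSeq macaque table, used for neighbours only.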

Additional observations from a re-analysis of the deposited data

Results flagged for a closer look

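In each member, the 6 fetal and the 4 juvenile animals were searched for 1 value far from the others of its stage by Dixon's test. Of 200 such groups 10 held one, and chance gives about 1 in 20.

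Among the fetal animals, the one at 57 days before birth was far above the rest in ZNF124 (5.98, next 5.43), SVIP (2.93, next 2.09) and DNAJB4 (5.46, next 4.90). Its array had the highest fetal median, and the part of that in these values was not tested. The animal at 72 days before birth was far below the rest in ZNF438 (1.13, next 2.24). The animal at 42 days before birth was far above them in SDHAF4 (4.24, next 3.97).

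Among the juveniles, the animal of 353 days was far above the rest in LINC00310 (3.49, next 2.88) and ANGPT1 (4.22, next 3.85). The animal of 831 days was far above the rest in TLE1 (5.78, next 5.09) and far below them in PAFAH2 (2.69, next 3.17). That PAFAH2 value was under the 20th percentile of its array, 2.73. The animal of 479 days was far above the rest in MNAT1 (5.54, next 5.30).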

How the results depend on the processing

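Of the 100 members, 57 were chosen again with the floor, 56 with the dimmest rows removed (all that were kept), 59 with a limit of 0.5, and 66 without the arrays of highest median among fetal and juvenile animals, an alternative chosen after seeing the data. Leaving out 1 animal gave 25 (without the 24-day animal) to 94. The 43 members without overlap became 26 with the floor and 24 with dim rows removed. Removing dim rows dropped 44 of the 100 members and changed no value of the others, so the 24 are not out of 100. For the members as first chosen, the median difference was between 0.54 and 0.72 under the 2 scalings, the floor, the removal of dim rows and the animals left out. These genes were chosen for that difference, so its size under these settings tests nothing. Leaving out a fetal animal cannot change it.

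In limma's tests 0 members passed in any within-stage test under any alternative run. Over all rows, the newborn difference gave 1 call with a trended, robust variance. The juvenile slope gave 1 call with linear age, 1 with quantile normalization, and 0 to 1 with 1 animal left out. Juvenile against newborn animals gave 4 calls, and 0 with array weights, 2 with centred arrays, 7 with dim rows removed, 13 with the floor, 10 with a trended, robust variance, and 0 (without the fetal animal at 42 days before birth, among others) to 8 (without the 182-day animal). Newborn against fetal animals gave 690 calls, 1090 with centred arrays, 1170 with quantile normalization, and 2 (without the 24-day animal) to 1061 with 1 animal left out; a stage left with 1 animal is assumed to vary like the others. The newborn difference of ZNF438 turned from -1.32 to 0.018 with the floor, where the 24-day value was raised to it.

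No paired analysis was possible because the labels give no replicate numbers and each animal was sampled at 1 age. With 2 newborn animals, the simulated newborn difference of 1 log2 unit was recovered in 4% of changed rows, and values under the floor have no measured order.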

Other observations

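Rows that carry no symbol or several could not become members. Of 782 such rows, 435 lay within the limit on the newborn minus fetal difference, and 13 of these had a juvenile minus newborn difference at least as large as that of the last member, the highest at 1.30 ± 0.21 (SE). That row carries several symbols, so its gene is not named, and it passed the test between juvenile and newborn animals (limma, adjusted p = 0.0442).

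The other 3 rows called between newborn and juvenile animals were CRYAB, DPYSL5 and TNC, none of them a member. CRYAB, a small heat shock protein of glia, was at 2.59 in fetal, 3.84 in newborn and 5.80 in juvenile animals, and it rose by 1.96 ± 0.31 (SE) between the last 2 stages (limma, adjusted p = 0.0442). In the other direction, the growth cone gene DPYSL5 fell by 1.83 (adjusted p = 0.0442) and the matrix gene TNC by 1.61 (adjusted p = 0.0442). The count of 4 called rows was 0 with array weights and 0 to 8 with 1 animal left out.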
